A study of Mus musculus with 11 samples.

Results

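The piRNA pathway genes described here were Piwil2, Piwil4, Mov10l1, Tdrd1, Tdrd9, Tdrkh, Mael, Asz1, Gpat2 and Gtsf1. They were found on the array as every probe set whose single annotated gene symbol was one of these 10 names, which gave 13 of the 45101 probe sets and 10 of the 18194 genes with a probe set of their own. Piwil4, Asz1 and Gtsf1 had 2 probe sets each, and the main probe set of a gene was the one with the highest mean log2 signal over all arrays. RNA came from the rete testis (RT), the Sertoli valve (SV), which is the transitional segment between the rete and the tubules, and the convoluted seminiferous tubules (ST) of 7-week-old W/Wv mice, with 3 RT arrays, 4 SV arrays and 4 ST arrays. Each biological replicate used 20 testes, and the sources do not say whether the RT, SV and ST pieces of one replicate number came from the same testes. All 3 regions carried the same W/Wv genotype, a pair of mutant alleles of the receptor gene Kit that leaves most of the germ line missing, and no wild-type array was included. The pieces were cut by hand under trypan blue, so that a piece of one region may hold cells of its neighbours.

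piRNAs are small RNAs that guide PIWI proteins to matching transcripts, and in the mouse male germ line they are best known for silencing transposons. Long precursors are unwound and cut at the mitochondrial surface and in the germ granules beside it, loaded into PIWI proteins and trimmed at the 3′ end, and a cycle of PIWI cleavage on opposite strands can amplify them. Most proteins of this machinery are made in germ cells, from fetal prospermatogonia to spermatocytes and round spermatids.

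Before the signals, the upstream sequence of some members is shown as a description of the genes. Of the 10 members, 9 had a window in the RefSeq promoter table (GRCm38.p6), and Piwil2 had none. In the 250 bases before the start, the 6-letter E-box CACGTG, which reads the same on both strands, was present for 4 of the 9 members, Mael, Tdrd1, Tdrd9 and Mov10l1, and for 6.86% of the 27025 genes in the table. GCGGGA, searched on both strands, was present for 1 of the 9 (Mael) and 18.8% of all genes, and CCAAT, on both strands, for 5 of the 9 (Mael, Tdrd9, Tdrkh, Mov10l1 and Gpat2) and 37.5% of all genes. None of these motifs contains another. The windows of the 4 members with CACGTG are printed with that of Tdrkh, which has no CACGTG and whose signal differed little between RT and ST, from 5′ to 3′ on the strand of the gene, with CACGTG in capitals.
Mael, chr1:166238745-166238994, minus strand: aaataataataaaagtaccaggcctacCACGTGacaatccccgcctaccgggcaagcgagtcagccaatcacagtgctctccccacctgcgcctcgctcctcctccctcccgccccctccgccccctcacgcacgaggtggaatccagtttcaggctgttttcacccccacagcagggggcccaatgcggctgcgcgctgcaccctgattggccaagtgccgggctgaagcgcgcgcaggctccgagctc
Tdrd1, chr19:56826025-56826274, plus strand: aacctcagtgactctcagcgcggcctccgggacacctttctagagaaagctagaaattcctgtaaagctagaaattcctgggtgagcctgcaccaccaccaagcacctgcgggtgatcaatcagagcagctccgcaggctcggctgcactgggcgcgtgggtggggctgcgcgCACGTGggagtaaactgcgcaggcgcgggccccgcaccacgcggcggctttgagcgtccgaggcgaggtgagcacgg
Tdrd9, chr12:111971309-111971558, plus strand: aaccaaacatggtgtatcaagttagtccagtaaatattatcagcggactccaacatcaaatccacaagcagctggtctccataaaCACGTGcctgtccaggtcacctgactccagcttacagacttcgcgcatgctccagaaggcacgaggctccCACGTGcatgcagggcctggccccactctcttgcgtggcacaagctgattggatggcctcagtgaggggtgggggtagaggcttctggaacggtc
Mov10l1, chr15:88982744-88982993, plus strand: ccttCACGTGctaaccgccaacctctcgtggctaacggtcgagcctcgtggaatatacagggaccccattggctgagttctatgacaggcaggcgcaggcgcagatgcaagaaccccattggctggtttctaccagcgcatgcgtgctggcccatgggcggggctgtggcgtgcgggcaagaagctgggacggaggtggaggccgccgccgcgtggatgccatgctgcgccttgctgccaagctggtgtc
Tdrkh, chr3:94412994-94413243, plus strand: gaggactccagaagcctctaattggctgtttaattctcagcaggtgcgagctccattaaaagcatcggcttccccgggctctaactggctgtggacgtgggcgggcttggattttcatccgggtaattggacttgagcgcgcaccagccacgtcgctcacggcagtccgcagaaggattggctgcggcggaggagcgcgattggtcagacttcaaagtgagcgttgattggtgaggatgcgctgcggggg
The E-box began 223 bases before the start in Mael and 246 bases before it in Mov10l1, and at 165 and 95 bases in Tdrd9. In Tdrd1 it lay 77 bases before the start printed here and was the same site in the window of a neighbouring start. Of the members with a window but no CACGTG, Gpat2 and Gtsf1 were called lower in RT, Asz1 by 1 of its 2 probe sets, and Tdrkh and Piwil4 were not. Of 14 other piRNA pathway genes with a window, 6 held CACGTG (Piwil1, Ddx4, Pld6, Fkbp6, Dnmt3l and Stk31). A match says only that these letters stand in the window, and any link to the signals was not tested.

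Signals are given as deposited, on the linear MAS5 scale, and are compared only between arrays for the same probe set. Fold changes are log2 differences of the mean log2 signal with the limma standard error, and a probe set was called at a Benjamini-Hochberg adjusted p under 0.05 and over 2-fold, adjusted over all 45101 probe sets. The regions bore out their labels: 13 of 14 rete testis markers (keratins, Pax8, Cdh1 and others) were called higher in RT than in ST, with a summed signal of 35414–54836 over the RT arrays, 5389–12509 over the SV arrays and 1352–1646 over the ST arrays. Of 20 Sertoli markers, 11 were called lower in RT and 0 in SV than in ST. Germ cell markers were not absent from these W/Wv testes: the summed signal of 9 genes was 355.3–826.3 over the RT arrays, 1216–2886 over the SV arrays and 2105–5328 over the ST arrays. In pieces of tissue, fewer cells of a type and less RNA per cell cannot be told apart.

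RT, which lies outside the tubules, was compared with ST. Of the 13 member probe sets, 9 were called lower in RT than in ST and 0 higher, against 5.48% of all probe sets called lower and 10.2% called higher. By main probe set, 7 of 10 genes were lower (Piwil2, Mov10l1, Tdrd1, Tdrd9, Mael, Gpat2 and Gtsf1) and 3 were not called (Piwil4, Tdrkh and Asz1). The median log2 fold change of the 10 genes was -2.82, beside 0.08 for all genes. In 10 of the 13 probe sets every RT array lay below every ST array, as it did in 13.6% of all probe sets.

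**Figure D1:**
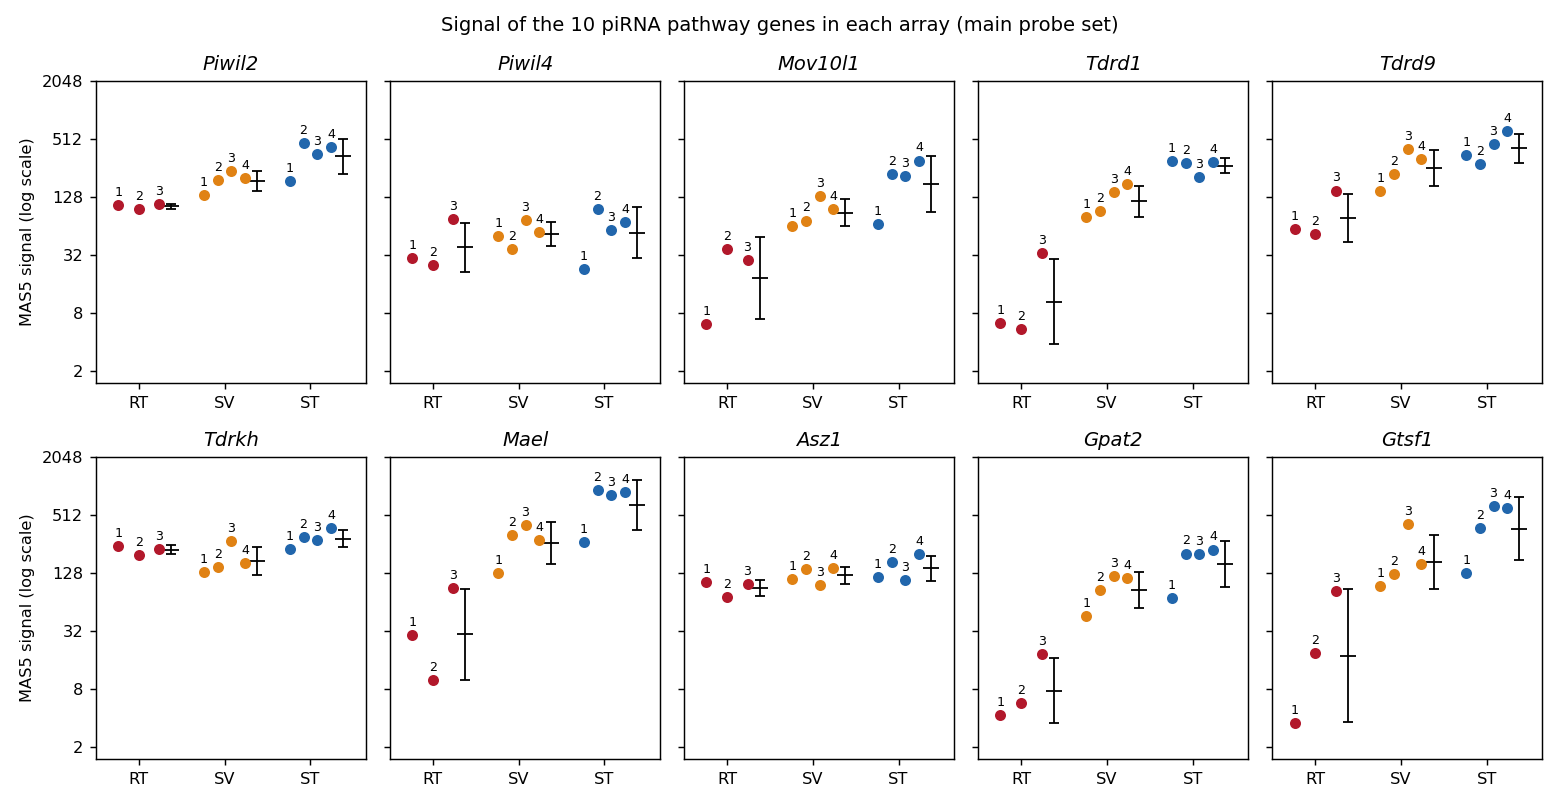
MAS5 signal of the main probe set of each of the 10 genes in every array (vertical axis, log scale), with RT, SV and ST from left to right; numbers beside points are replicate numbers, and the black bar beside each region is the mean ± SD of the log2 signal (n = 3 RT, 4 SV and 4 ST arrays). Tdrd1, Mael, Gpat2 and Gtsf1 step up from RT to SV to ST, whereas Piwil4, Tdrkh and Asz1 differ less between the regions. Piwil4 and Tdrkh overlap between RT and ST, and the RT arrays of Asz1 lie just below its ST arrays.

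Among the PIWI proteins, Piwil2 (MILI), the slicer that takes part in both primary processing and amplification, had signals of 105.5, 95.5 and 107.5 in RT, 133.4, 194.2, 240.4 and 201.6 in SV, against 185.9, 465.2, 360.6 and 423.2 in ST. The RT arrays were close to each other and all below the lowest ST array. RT against ST gave a log2 fold change of -1.72 ± 0.30 (adjusted p = 8.51e-04, limma). Piwil4 (MIWI2), the nuclear PIWI protein that directs DNA methylation of transposons in fetal germ cells, had a main probe set with signals of 30.0, 25.2 and 75.0 in RT, 50.8, 37.0, 74.7 and 55.6 in SV, against 22.9, 96.4, 58.4 and 70.4 in ST. The regions overlapped throughout. RT against ST gave a log2 fold change of -0.52 (95% CI -1.68 to 0.65, adjusted p = 0.558), and its other probe set, with signals of 7.1–33.8 in all arrays, gave -0.71 (95% CI -2.03 to 0.61, adjusted p = 0.463). These intervals still allow a fall of over 2-fold. The main probe sets of Piwil4 and Gtsf1 end in _x_at, the array's mark for probes that may also bind other transcripts.

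Mov10l1, the RNA helicase that feeds precursors into piRNA processing, had signals of 6.1, 37.0 and 28.2 in RT, 64.6, 73.2, 131.9 and 96.9 in SV, against 66.7, 221.2, 210.9 and 306.8 in ST. All RT arrays lay below all SV and ST arrays. RT against ST came to a log2 fold change of -3.24 ± 0.63 (adjusted p = 0.00170).

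The Tudor domain proteins, which bind methylated arginines of PIWI proteins and assemble them in germ granules, gave 2 genes called lower in RT and 1, Tdrkh, that was not. Tdrd1, the scaffold of the cement between mitochondria, had signals of 6.3, 5.4 and 34.0 in RT, 78.9, 92.0, 143.3 and 174.0 in SV, against 305.5, 289.9, 206.9 and 296.3 in ST. The 3 regions did not overlap. Its log2 fold change in RT against ST, -4.69 ± 0.55 (adjusted p = 3.79e-05), was the lowest of the members on this scale. Tdrd9, a helicase with a Tudor domain that acts with MIWI2 in transposon silencing, had signals of 59.7, 52.5 and 149.8 in RT, 149.5, 221.9, 407.5 and 319.5 in SV, against 348.8, 285.0, 456.5 and 621.7 in ST. RT lay below ST in every array, and RT replicate 3 was level with SV replicate 1. Its log2 fold change was -2.40 ± 0.41 (adjusted p = 7.18e-04). Tdrkh, a mitochondrial Tudor protein that recruits PIWI proteins for 3′ trimming, had signals of 243.1, 197.7 and 227.4 in RT, 130.4, 146.3, 276.3 and 160.7 in SV, against 224.6, 299.5, 282.0 and 373.2 in ST. RT overlapped ST, and the log2 fold change was -0.39 (95% CI -0.95 to 0.18, adjusted p = 0.335), an interval that leaves out a 2-fold fall on the deposited scale. The value came to -0.69 (adjusted p = 0.0794) after quantile normalization and -0.81 (adjusted p = 0.0322) after median centring, and neither passed 2-fold.

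Mael, an HMG box protein of the germ granules needed for transposon silencing, had signals of 28.8, 9.9 and 88.7 in RT, 128.3, 313.8, 404.5 and 282.3 in SV, against 267.2, 925.7, 813.7 and 890.3 in ST. The RT arrays were apart from the rest, and ST replicate 1 stood among the SV arrays. RT against ST came to a log2 fold change of -4.47 ± 0.64 (adjusted p = 1.95e-04).

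Of the proteins at the mitochondrial surface, Gpat2, a member of the glycerol-3-phosphate acyltransferase family needed for piRNA production, had signals of 4.3, 5.7 and 18.4 in RT, 45.8, 84.5, 117.8 and 114.2 in SV, against 70.2, 202.8, 198.7 and 223.2 in ST. Its RT arrays were all below every SV and ST array, with a log2 fold change in RT against ST of -4.37 ± 0.58 (adjusted p = 9.91e-05). Asz1 (GASZ), a scaffold of the same site, was called lower in RT by 1 of its 2 probe sets. Its main probe set, which ends in _a_at, had signals of 101.7, 72.1 and 97.7 in RT, 111.0, 140.0, 94.5 and 143.5 in SV, against 114.8, 166.7, 107.5 and 199.1 in ST, with RT just below ST and a log2 fold change of -0.67 (95% CI -1.29 to -0.04, adjusted p = 0.116). The other probe set had signals of 68.4, 33.2 and 20.8 in RT, 47.9, 127.0, 139.8 and 120.1 in SV, against 73.9, 268.0, 214.0 and 331.8 in ST. It was called lower in RT, with a log2 fold change of -2.42 ± 0.56 (adjusted p = 0.00558). After quantile normalization, and after median centring, the main probe set was called too, at -1.07 and -1.09.

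Gtsf1, a zinc finger protein that assists slicing by PIWI proteins, had signals of 3.5, 18.7 and 83.4 in RT, 94.0, 125.6, 414.4 and 157.9 in SV, against 128.0, 372.6, 638.1 and 606.1 in ST for the main probe set. Its other probe set had signals of 42.2, 2.5 and 101.1 in RT, 70.3, 132.0, 219.8 and 183.1 in SV, against 170.3, 342.3, 337.2 and 405.0 in ST. Both probe sets had every RT array below every ST array and RT replicate 3 as the highest RT array. The log2 fold changes in RT against ST were -4.39 ± 0.88 (adjusted p = 0.00225) and -3.76 ± 0.92 (adjusted p = 0.00822).

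The sizes of these falls rest on RT signals near the bottom of the scale, where MAS5 values are noisy. With signals under 32 set to 32, the calls were the same 9 probe sets, but the log2 fold changes in RT against ST came to -3.06 for Tdrd1, -3.86 for Mael, -2.31 for Gpat2, -3.06 for Gtsf1 and -2.39 for Mov10l1. The order of the members changed with it: Mael was then the lowest, as it was with log2(signal + 32) at -3.35, where Gtsf1 (-2.78) was also lower than Tdrd1 (-2.74). Without ST replicate 1, Mael (-4.90), Gtsf1 (-4.90) and Gpat2 (-4.76) were lower than Tdrd1 (-4.63). Leaving out RT replicate 3, the highest RT array in 8 of the 13 probe sets, gave -5.54 for Tdrd1, -5.27 for Mael, -5.00 for Gpat2 and -5.51 for Gtsf1. Without RT replicate 1, Gtsf1 came to -3.22 and Mov10l1 to -2.44, and without RT replicate 2 Mael came to -3.69. No array decided the count, which was 9 with any one array left out.

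In the SV, the place where the tubule meets the rete, all members but Tdrkh had a mean signal between those of RT and ST. No member probe set was called in SV against ST (0 of 13, limma), beside 0.0665% of all probe sets called lower and 1.5% called higher. At an unadjusted p under 0.05, 4 of 13 were lower (Mael, Tdrd1, Tdrkh and Piwil2) and 0 higher, beside 4.98% of all probe sets lower and 8.25% higher. The methods' t-test at p under 0.05 and over 2-fold, unadjusted, called 1 of 13 lower (Tdrd1), beside 0.958% of all probe sets. All 13 fitted log2 fold changes were below 0, with a median of -0.90 over the probe sets, beside 0.00 over all probe sets. Tdrd1 was the only member whose SV arrays were all below its ST arrays, 1 of 13 beside 2.81% of all probe sets. Set against the ST array of the same replicate number, however, SV was lower in all 4 pairs for 11 of 13 probe sets (all but both of Piwil4), beside 13.8% of all probe sets. In the same arrays 10 of 14 rete testis markers were called higher in SV than in ST, and their part in the values of the members was not tested.

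Mael had a fitted value in SV against ST of -1.32 ± 0.60 (95% CI -2.61 to -0.03, adjusted p = 0.361), and Tdrd1 stood at -1.23 ± 0.51 (95% CI -2.32 to -0.13, adjusted p = 0.301). Tdrkh stood at -0.77 ± 0.24 (adjusted p = 0.145) and Piwil2 at -0.85 ± 0.28 (adjusted p = 0.167). With the replicate number as a block, Piwil2 had the same value with an adjusted p of 0.0401, short of 2-fold, and the adjusted p of Tdrkh was 0.0542. In that limma fit the adjusted p was 0.0747 for Tdrd9, 0.112 for Gtsf1, 0.123 for Mael and 0.141 for Tdrd1. It was 0.150 for Mov10l1, 0.162 for Gpat2, 0.649 for Asz1 and 0.968 for Piwil4, with the fold values unchanged. In the fit without a block, Tdrkh was fitted lower in SV than in RT, and that difference, -0.38 (95% CI -0.94 to 0.19, adjusted p = 0.406), was not called. Of the other main probe sets, Gtsf1 (-1.14), Mov10l1 (-0.995), Gpat2 (-0.90), Tdrd9 (-0.68), Asz1 (-0.24) and Piwil4 (-0.05) had intervals that included 0. Piwil4 turned to 0.22 without ST replicate 2, the array with its highest ST signal. Without ST replicate 1, Piwil2 was called lower in SV (-1.14, adjusted p = 0.027), and 1 of 13 was called in place of 0.

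Between the SV and RT, 6 of 13 member probe sets were called higher in SV and 0 lower, beside 2.95% of all probe sets called higher and 4.99% called lower. They were the main probe sets of Gpat2 (3.47 ± 0.58, adjusted p = 0.00159), Tdrd1 (3.46 ± 0.55, adjusted p = 0.00118), Gtsf1 (3.24 ± 0.88, adjusted p = 0.0260), Mael (3.15 ± 0.64, adjusted p = 0.00555), Mov10l1 (2.25 ± 0.63, adjusted p = 0.0293) and Tdrd9 (1.72 ± 0.41, adjusted p = 0.0135). By main probe set, every SV array was above every RT array for Gpat2, Tdrd1, Gtsf1, Mael, Mov10l1 and also Piwil2, and Tdrd9 overlapped by 1 array. The share of all probe sets with such a separation was not counted. Piwil2 stood at 0.87 ± 0.30 (adjusted p = 0.0751), Asz1 at 0.43, Piwil4 at 0.46 and Tdrkh at -0.38, and these were not called. With the replicate number as a block, the second probe set of Gtsf1 was also called (2.52, adjusted p = 0.0453), which made 7 of 13. The count depended on the low RT signals and on single RT and SV arrays: it was 3 with a floor of 32 (Mael, Tdrd1 and Tdrd9), 3 without RT replicate 1, 4 without RT replicate 2 or without SV replicate 3, and 9 with quantile normalization or median centring. The 2 comparisons with RT share the RT arrays, and those with ST share the ST arrays.

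**Figure D2:**
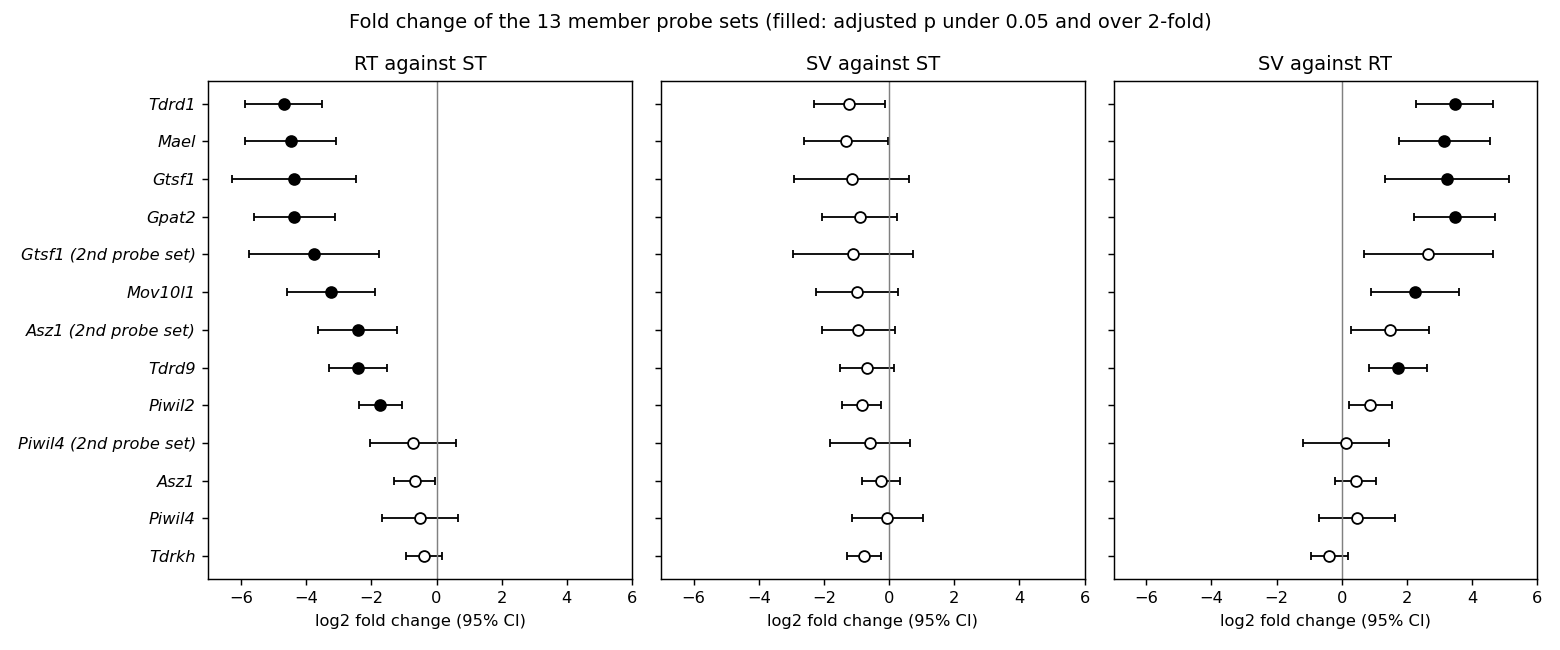
Log2 fold change (horizontal axis) with its 95% confidence interval for the 13 member probe sets in RT against ST, SV against ST and SV against RT, from limma on all 11 arrays; filled points were called. In RT against ST 9 points are filled, in SV against ST 0 and in SV against RT 6.

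Within ST, the members were not at the same level in the 4 arrays. ST replicate 1 was the lowest ST array in 9 of 13 member probe sets, beside 31.7% of all probe sets, and it was over 2-fold below each of the other ST arrays in 6 of 13 (Mael, Piwil4, Mov10l1, Asz1, Gpat2 and Gtsf1, 1 probe set each), beside 7.84% of all probe sets. Set against the mean of the other ST arrays, its signal was 0.238 times as high for Gtsf1, 0.271 for Mov10l1, 0.305 for Mael and Piwil4, 0.337 for Gpat2, 0.446 for Piwil2 and 0.706 for Tdrkh. Tdrd1 did not follow: ST replicate 1 was its highest ST array, at 1.16 times the mean of the others, and ST replicate 3 its lowest. The main probe set of Asz1 was likewise lowest in ST replicate 3, and Tdrd9 was lowest in ST replicate 2. The 2 probe sets of Piwil4 differed: the values above are of its main probe set. Its second probe set, at 23.4, 33.8, 18.6 and 25.2 in ST, was lowest in ST replicate 3. There ST replicate 1 stood at 0.905 times the mean of the others. ST replicate 4 was the highest ST array in 7 of 13, beside 24.2% of all probe sets.

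**Figure D3:**
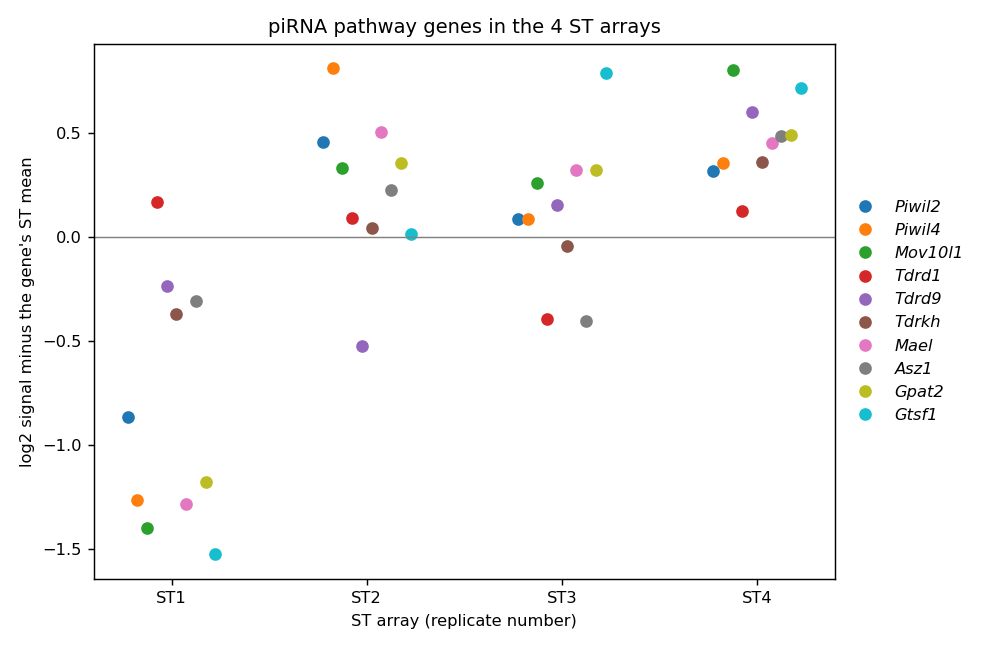
Log2 signal of each member's main probe set minus its mean over the 4 ST arrays (vertical axis), by ST array, 1 colour per gene. In ST1, 6 genes (Piwil2, Piwil4, Mov10l1, Mael, Gpat2 and Gtsf1) lie far below the rest of their arrays, while Tdrd1 lies above 0.

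Other gene lists moved in the same array. In ST replicate 1 the median log2 signal, relative to the mean of ST, came to -1.02 for the 10 members, -0.68 for 18 other piRNA pathway genes, -1.06 for 9 germ cell markers and -0.60 for 14 meiotic markers, and it was -0.35 for 14 rete testis markers. It was 0.33 for 14 spermatid markers, 0.11 for 20 Sertoli markers, 0.46 for 6 Leydig markers and 0.42 for 8 peritubular myoid markers. The summed germ cell signal was 2105 in ST replicate 1 and 4335–5328 in the other ST arrays. The median signal of the whole array was also lowest there, at 65.8 against 79.3–85.1 in the other ST arrays. The part of any of these in the members' spread was not tested.

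The SV and RT arrays also had an order shared by most members. SV replicate 1 was the lowest SV array in 11 of 13 probe sets, beside 26.7% of all, and SV replicate 3 the highest in 10, beside 26.9%. The summed germ cell signal was likewise lowest in SV replicate 1 (1216) and highest in SV replicate 3 (2886), and the summed rete signal was highest in SV replicate 1 (12509) and lowest in SV replicate 3 (5389). In RT, replicate 3 was highest in 8 of 13, beside 42.3% of all, with a germ cell sum of 826.3 against 355.3 and 527.9 in the other RT arrays, and a rete sum of 35414 against 45935 and 54836. The members' mean log2 signal relative to ST was -3.28 and -3.05 in RT replicates 1 and 2, and -1.73 in RT replicate 3. In SV it was -1.38 and -0.96 in replicates 1 and 2, and -0.30 and -0.63 in replicates 3 and 4. In ST it was -0.83 and 0.23, then 0.12 and 0.47. The part of the sums, or of the set of replicates (1 and 2, or 3 and 4), in the order of the members was not tested. The SD of log2 signal over the 13 probe sets had a median of 0.86 for RT, 0.63 for SV and 0.60 for ST. It was 0.41, 0.52 and 0.54 for the 17939 probe sets whose mean over all 11 arrays lay within the members' range. Level was not matched within a region. Several members had RT signals near the bottom of the scale, so the RT values do not compare like levels.

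**Figure D4:**
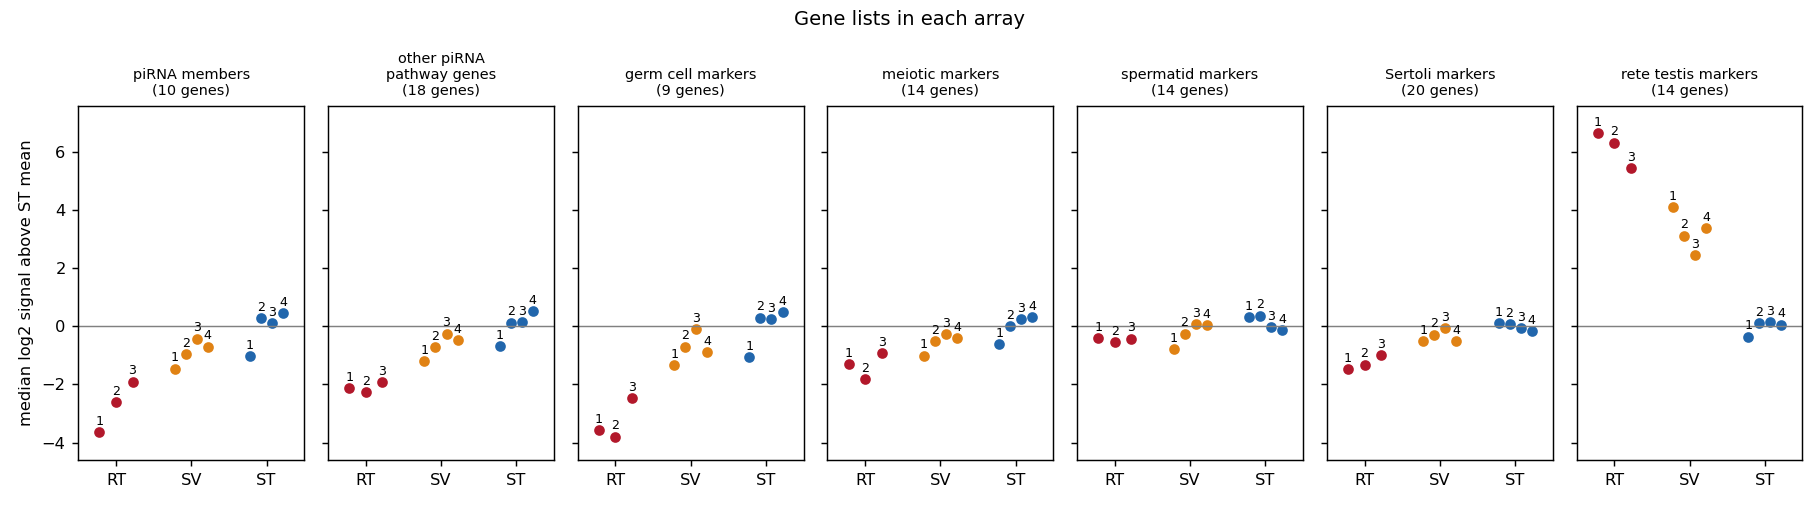
Median log2 signal of each gene list above its ST mean (vertical axis) in every array, with RT, SV and ST from left to right and replicate numbers beside the points. The members and the germ cell markers are lowest in RT and lowest of the ST arrays in ST1, the Sertoli markers are below -0.9 only in RT, and the rete testis markers are highest in RT and lowest of all arrays in ST1.

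The wider pathway was followed through 18 measured genes outside the 10 members, of which Ddx4 is also one of the germ cell markers. In RT, 15 of 18 were called lower than in ST and 0 higher, with a median log2 fold change of -2.03, beside 0.08 and 7.34% called lower for all genes. By main probe set, the lowest were Morc1, a factor of transposon silencing (-3.79), and Ddx4, the germ granule helicase MVH (-3.50). Next came Tdrd12, a Tudor protein with a helicase domain (-3.12), and Btbd18, a nuclear factor needed for pachytene piRNA loci (-3.11). The RT signals of Tdrd12 (2.4–9.9) and Btbd18 (2.5–18.7) were near the bottom of the scale. Tdrd12 in RT overlapped ST, where replicate 1 stood at 7.5. The second probe set of Stk31 (1.7–39.9 in RT) stood at -4.78. Morc1 had signals of 24.1, 26.8 and 67.7 in RT, 129.9, 232.5, 389.9 and 307.6 in SV, against 325.0, 468.7, 601.4 and 624.2 in ST, so that the 3 regions overlapped only between SV and ST. Ddx4 had 39.6, 29.2 and 98.1 in RT, 145.2, 254.8, 397.4 and 297.3 in SV, against 182.6, 736.4, 724.8 and 928.0 in ST, and ST replicate 1 was again its lowest ST array. Of the genes that were not called, Tdrd7 (0.30, adjusted p = 0.184), which also acts in the lens, had signals of 853.6–1415 in all arrays, Henmt1, the methyltransferase of piRNA 3′ ends, stood at -1.004 (adjusted p = 0.331), and Gtsf1l, a relative of Gtsf1, at 2.07 (adjusted p = 0.0560). Gtsf1l had 52.2, 85.6 and 42.0 in RT, 7.7, 12.7, 5.0 and 33.9 in SV, against 5.8, 15.0, 13.7 and 29.6 in ST, and so ran against the other genes. In SV against ST 0 of 18 were called, with 17 of 18 fitted below 0 and a median of -0.72. Of all 18194 genes, 14 were called lower and 435 higher there, and 8753 were fitted below 0, with a median of 0.02. In SV against RT 9 of 18 were called higher and 0 lower, beside 799 higher and 1166 lower of all 18194 genes. Morc1 (2.80), Dnmt3l, a cofactor of DNA methylation (2.58), Btbd18 (2.45) and Ddx4 (2.41) were at the top.

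Germ cell markers gave the values beside which these falls stand. Of all 18194 genes, 7.34% were called lower in RT than in ST and 2272 were called higher. The median log2 fold change was -3.16 for the germ cell markers, -1.36 for the meiotic markers and only -0.30 for the spermatid markers. In RT 6 of 9 germ cell markers, 6 of 14 meiotic markers and 2 of 14 spermatid markers (Odf1 at -3.57 and Spaca1 at -1.86) were called lower than in ST. Among them were Dazl, an RNA-binding protein of germ cells (-4.04), and Sycp1, a protein of the synaptonemal complex (-2.94), while 1 meiotic marker, Rec8, was higher (2.84). Of 13 markers of undifferentiated spermatogonia, 5 were called lower in RT (Sall4, Lin28a, Pou5f1, Neurog3 and Utf1) and 3 higher (Gfra1, Ret and Tspan8). Sall4, a zinc finger factor, was lower (-5.49 ± 0.85, adjusted p = 3.24e-04) whereas Gfra1, the GDNF receptor gene, was higher (4.34 ± 0.39, adjusted p = 5.82e-06), with signals of 2379, 2328 and 2698 in RT, 624.2, 294.4, 371.9 and 754.4 in SV, against 53.7, 138.4, 168.1 and 173.0 in ST. Gfra1 in ST was lowest in ST replicate 1, as were most members. The part of germ cell number in the members' levels was not tested.

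The mean profile of the 10 members over the 11 arrays, in log2 units relative to ST, stood at -3.28, -3.05 and -1.73 in RT, -1.38, -0.96, -0.30 and -0.63 in SV, and -0.83, 0.23, 0.12 and 0.47 in ST. Among 11585 other genes with a mean signal above the median, the 5 whose own profile differed least from it were Bub1, a kinase of the mitotic checkpoint, Serpinb2, a protease inhibitor, Sohlh1, a transcription factor of spermatogonia, Uba1y, a Y-linked ubiquitin-activating enzyme, and Tex19.1, a germ cell gene. Their root mean square differences were 0.21, 0.23, 0.24, 0.27 and 0.30 log2 units, beside a median of 1.62 over all these genes. Of the members, Tdrd9 (0.36), Piwil2 (0.62) and Mov10l1 (0.64) were nearest to their own mean profile and Tdrkh (1.27) and Piwil4 (1.26) farthest. Sohlh1 had signals of 28.5, 19.3 and 67.7 in RT, 68.4, 92.7, 207.0 and 129.6 in SV, against 110.1, 231.1, 265.9 and 318.4 in ST. Such likeness over 11 arrays, which differ chiefly by region, is a description, and the 5 genes were picked for it.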

How the data were processed

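Pieces of W/Wv testes (RT, SV, ST) gave RNA that was labelled with a 3′ IVT kit and hybridised to Affymetrix Mouse Genome 430 2.0 arrays. Per probe set and array the authors deposited 1 intensity value, a MAS5 signal on a linear scale; detection calls were not used here. Gene names come from the array annotation: 34958 probe sets carry 1 symbol, 932 several and 9211 none. The number of arrays (3, 4 and 4) limits the precision.

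Log2 signals of all 11 arrays, unfiltered, entered a model with region as the only term in limma 3.58.1 under R 4.3.3 (lmFit, then eBayes with trend). This fit was tested on simulated data for RT against ST. All 13 member probe sets are named; of other lists up to 4 called genes with the largest change per comparison, any count of 5 or fewer in full, and the 5 genes most like the members' mean profile. Gfra1 and Sall4 fall under this rule, and Gtsf1l, Tdrd7 and Henmt1 make up a count of 3. The members and lists were chosen with earlier results of these data known. Of 22 other piRNA pathway genes 18 had a probe set of their own, and the signals of Tdrd6, Fkbp6, Spocd1 and Dnmt3c were not analysed here. The methods' t-test (Student's, on log2 signal), other normalizations, a floor and an added constant of 32, a filter on dim probe sets, blocks by replicate and leaving out each array were tried. After region means were removed, same-numbered arrays correlated at 0.14–0.19 in the 4 pairs of SV with ST, at 0.10–0.15 in the 3 pairs of SV with RT and at 0.07–0.15 in the 3 pairs of RT with ST. The numbers were thus taken to pair SV with ST, from the data and not from the labels. For SV with RT and RT with ST, the number could not be told apart from the set of replicates. RT replicate 3 correlated at 0.18 with SV replicate 4, above the 0.15 with SV replicate 3. Values with a replicate block are given where they differ from those without it. Figures and motif counts were made with Python 3.11.15, pandas and matplotlib 3.10.9.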

Additional observations from a re-analysis of the deposited data

Results flagged for a closer look

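In 5 of 26 tests of the 13 member probe sets over the 4 SV or the 4 ST arrays, 1 array was so far from the others that its gap to the nearest took more of the whole range of log2 signal than the 95% limit of Dixon's test for 4 values; chance flags about 1 in 20 such groups, and over all probe sets 6.45% of 90202 such tests passed the limit. In ST replicate 1 the gap was 0.896 of the range for Mael and 0.899 for Gpat2, both lowest there. In ST replicate 3 it was 0.866 for Tdrd1, lowest there. In SV replicate 1 it was 0.876 for the second probe set of Piwil4 and 0.858 for the second probe set of Asz1, both lowest there.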

How the results depend on the processing

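The 9 member probe sets lower in RT than in ST were 9 with any one array left out and 5 under the methods' t-test with Benjamini-Hochberg adjustment. In SV against ST, 0 became 1 under the unadjusted methods' t-test (Tdrd1), and leaving out an array gave 0 to 1. In SV against RT, the 6 probe sets became 0 under the adjusted methods' t-test, 3 with a floor of 32 and 3 to 8 with an array left out (3 to 7 by main probe set). Among replicates 3 and 4 alone, where RT had 1 array, 0 members were called in SV against RT, but so were 0 of all 45101 probe sets, lower or higher, there and in SV against ST, so that this setting says nothing about the piRNA pathway genes in these comparisons. Of the 18 other genes, 15 lower in RT became 9 under the adjusted t-test and 6 among replicates 3 and 4 alone; the 9 higher in SV than in RT became 2 under the adjusted t-test, 4 with log2(signal + 32), 4 and 0 in the sets of replicates alone (1 and 2, 3 and 4) and 4 to 10 with an array left out. Gtsf1l moved 0 to 1 higher in RT against ST under the unadjusted t-test, with only the regions compared, with either block, among replicates 1 and 2 alone and when SV replicate 3 or 4 or ST replicate 4 was left out, and 0 to 1 lower in SV against RT under the unadjusted t-test, either block and when SV replicate 4 or ST replicate 1 was left out. Piwil4 turned sign among replicates 3 and 4 alone, at 0.23 in RT against ST, -0.22 in SV against RT and 0.00691 in SV against ST, where leaving out an array gave -0.47 to 0.22; it was not called in any of these. Other than where a value or the setting itself shows it, the cause was not tested.

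Same-numbered arrays of different regions correlated at 0.07–0.19 over all probe sets after region means were removed, and at 0.28–0.67 over the brighter part of them, against 0.07–0.18 and 0.17–0.48 for other numbers of the same set of replicates. The numbers paired SV with ST, whereas for SV with RT and RT with ST they could not be told apart from the set. With the replicate number as a block, 9 member probe sets were lower in RT and 0 were called in SV against ST. In SV against RT 7 were higher, with the second probe set of Gtsf1 added. Under the same block 1 other gene was called in SV against ST, Stk31, lower. Scaling moves the middle of the array: over all probe sets RT against ST had a median of 0.13 on the log2 scale, with quantile normalization -0.07 and with median centring -0.29, and the calls lower and higher were 2473 and 4607, 3535 and 3482, and 5254 and 2812. In SV against RT they were 2251 and 1332, 1731 and 1919, and 1349 and 2710. Signals near the bottom of the scale limit the size of a fold.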
